A study of Rattus norvegicus with 6 samples.

Results

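The genes described here encode enzymes that break down amino acids, together with enzymes of arginine, creatine and urea cycle metabolism, in the renal cortex of rats. They were chosen by name: 47 genes were listed by pathway, 43 of them had at least 1 array probe whose accession mapped to the gene, and all 43 were among the 12118 genes tested in the series. Auh, Acad8, Gldc and Shmt1 had no matched probe and were not analysed here. Each gene was represented by the probe with the highest mean signal among those well above background on all 3 arrays of a group. The 43 probes chosen were well above background on all 6 arrays.

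Male Sprague-Dawley (Crl:CD(SD)) rats, bought at an age of 5 weeks, formed the 2 groups compared. The vehicle group, labelled VC, comprised 3 animals given corn oil for 4 weeks, and the treated group comprised 3 animals given 250 mg/kg of sulfone bis(p-chlorophenyl) daily for the same time. Sulfone bis(p-chlorophenyl) is a chlorinated diaryl sulfone. Neither group carried a transgene or any other agent that the labels name. Each array measured the cortex RNA of 1 animal in 1 colour (Cy3), and the labels call the samples of a group biological replicates. The p-values measure the spread between these animals. In the treated group, whose arrays lay on 2 slides, this spread also holds any difference between slides.

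The proximal tubule reabsorbs filtered amino acids and oxidises part of them in its mitochondria and peroxisomes. The kidney also makes arginine from citrulline through Ass1 and Asl, makes the creatine precursor guanidinoacetate through Gatm, and breaks arginine down through Arg2 and Oat. Several of these enzymes are as typical of liver as of kidney, and Arg2 and Oat are known to be most abundant in the straight part of the proximal tubule, the S3 segment.

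Each level is a log2 signal relative to the 75th percentile of its own array, so a level of 0 equals that percentile. A difference is treated minus vehicle on this log2 scale, and SE is limma's moderated standard error. Probes differ in how strongly they bind, so levels are compared between animals for 1 probe and not between genes. The adjusted p of limma is over all 40643 tested probes, at a threshold of 0.05. In bulk tissue, fewer cells of a type and less RNA per cell cannot be told apart.

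Between 66.1% and 68.2% of an array's probes were well above background, and the array pairs correlated across tested probes at 0.982 to 0.994. The arrays lay on 2 slides. Slide 1 held vehicle 1, 2 and 3 and treated 1, and slide 2 held treated 2 and 3, so the value with slide as a fixed block is treated 1 against the vehicle arrays. It is called the slide 1 value below. It rests on 1 treated animal, so for single genes it is given as a size only. Counts of genes or probes under a threshold in that fit only describe the fit. They cannot show that a treatment difference held on slide 1. All 12 listed proximal tubule markers and all 6 podocyte markers were well above background on every array. The proximal tubule markers had a median relative to vehicle of -0.01, -0.02 and 0.0 over vehicle 1 to 3 and of -0.19, 0.16 and 0.17 over treated 1 to 3, with summed linear signals of 1520 to 1560 in vehicle and 1430 to 1690 in treated cortex. The medians of the 43 genes were -0.03, 0.0 and 0.02, then 0.09, 0.23 and 0.23, in the same order, and the part of tubule content in them was not tested. Without treated 1, 4235 of 41161 probes (10.3%) had an adjusted p under 0.05, against 3 of 40643 (0.00738%) with it and 1 (0.00246%) with slide as a fixed block. Once treated 1 is left out, every vehicle array is on slide 1 and every treated array on slide 2, so treatment and slide cannot be told apart in any value given without treated 1.

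Most of the 43 genes had a higher mean signal in treated cortex, by small amounts, and none of the differences passed the adjusted threshold. The difference was above 0 for 36 genes and below 0 for 7, against 47.5% above 0 over all genes tested. The median difference was 0.16, against -0.01 over all genes tested, and single genes ranged from -0.48 for Gatm to 1.91 for Arg2. At an unadjusted limma p under 0.05, 14 of the 43 genes (32.6%) were higher and 0 were lower. Over all genes tested the same rule gave 10.1% higher and 11.3% lower. In 17 genes (39.5%) every treated array lay above every vehicle array, against 13.9% of all genes. None of the 43 lay wholly lower in treated cortex, against 16.8% of all genes. After adjustment 0 of the 43 were called, against 0.0165% of all genes, and the adjusted p-values of the 14 lay between 0.0957 and 0.234.

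The count depended on single arrays. It was 9 without vehicle 1, 8 without vehicle 2 and 19 without treated 1, where 7.2%, 6.27% and 15.5% of all genes were higher by the same rule. On slide 1 it was 9 higher and 3 lower (Gcsh, Shmt2 and Ddo), against 6.4% and 7.45% of all genes. The slide 1 counts cannot show whether a treatment difference held there. That slide held only treated 1, and the treated spread in that fit came from treated 2 and 3 on slide 2. In size, the 14 genes kept their sign on slide 1, with differences from 0.11 for Gcdh to 2.65 for Arg2. The median difference over the 43 genes was 0.09 on slide 1 and 0.23 without treated 1. Of the 43 genes, 38 had their highest value on a treated array (88.4%), against 53.8% of all genes. For 30 (69.8%, against 39.9% of all genes) that array was treated 2 or 3. Both lay on slide 2, where treatment and slide cannot be told apart. For 8 (18.6%, against 13.9%) it was treated 1.

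**Figure D1:**
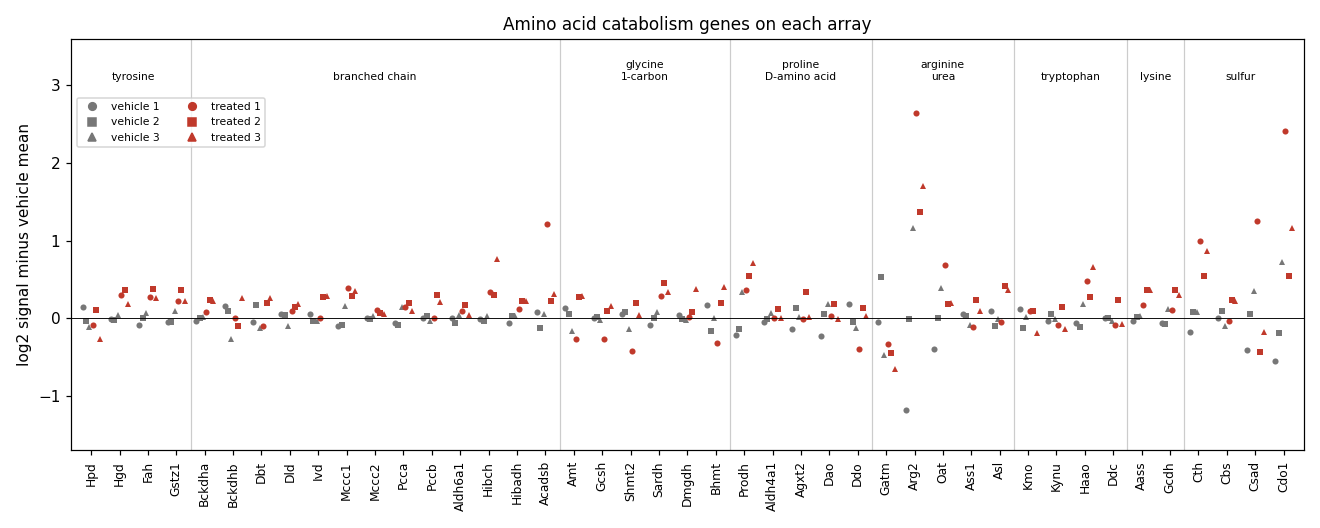
Each point is 1 array, plotted as the log2 signal of a gene minus its mean over the 3 vehicle arrays, for the 43 genes grouped by pathway (grey, vehicle; red, treated; the marker shape gives the replicate number). Most red points lie slightly above 0, the points range from -1.18 to 2.65, and Arg2, Cdo1, Csad and Acadsb spread most widely, with treated 1 highest.

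Tyrosine is degraded in the order Hpd, Hgd, Gstz1 and Fah. Of these 4 genes, 3 (75%) were higher in treated cortex at an unadjusted limma p under 0.05, against 10.1% of all genes. The limma p was 0.0109 for Hgd, 0.0165 for Gstz1 and 0.00752 for Fah. The 5′ flanks of these 3 genes are shown because the genes lay higher together, with those of Sardh and Cth, which had the smallest unadjusted p-values of all 43 genes. The sequences are the 250 bases before the RefSeq transcription start in build GRCr8, matched by symbol and written 5′ to 3′ along the gene. Capitals mark any match to the 4 motifs described after them.
Hgd promoter, chr11:76643768-76644017, - strand: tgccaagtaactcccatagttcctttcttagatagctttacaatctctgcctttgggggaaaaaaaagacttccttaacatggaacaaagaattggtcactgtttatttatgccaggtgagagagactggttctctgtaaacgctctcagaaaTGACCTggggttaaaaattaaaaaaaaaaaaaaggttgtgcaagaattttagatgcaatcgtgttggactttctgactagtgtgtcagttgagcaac
Gstz1 promoter, chr6:112525356-112525605, + strand: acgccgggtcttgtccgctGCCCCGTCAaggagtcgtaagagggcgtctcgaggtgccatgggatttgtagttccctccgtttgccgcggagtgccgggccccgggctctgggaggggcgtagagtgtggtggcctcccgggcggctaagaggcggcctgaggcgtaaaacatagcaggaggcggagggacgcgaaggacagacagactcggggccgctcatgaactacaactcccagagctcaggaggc
Fah promoter, chr1:147980606-147980855, - strand: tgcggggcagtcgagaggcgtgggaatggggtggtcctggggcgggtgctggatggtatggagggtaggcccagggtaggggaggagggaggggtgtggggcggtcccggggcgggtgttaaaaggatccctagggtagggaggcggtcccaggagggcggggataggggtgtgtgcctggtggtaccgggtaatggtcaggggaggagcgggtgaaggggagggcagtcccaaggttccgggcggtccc
Sardh promoter, chr3:30972138-30972387, - strand: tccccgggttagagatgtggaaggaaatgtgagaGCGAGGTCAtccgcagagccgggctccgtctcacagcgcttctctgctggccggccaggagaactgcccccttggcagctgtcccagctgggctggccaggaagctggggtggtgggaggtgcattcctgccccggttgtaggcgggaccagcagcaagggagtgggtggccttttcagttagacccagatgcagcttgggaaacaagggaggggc
Cth promoter, chr2:249661067-249661316, - strand: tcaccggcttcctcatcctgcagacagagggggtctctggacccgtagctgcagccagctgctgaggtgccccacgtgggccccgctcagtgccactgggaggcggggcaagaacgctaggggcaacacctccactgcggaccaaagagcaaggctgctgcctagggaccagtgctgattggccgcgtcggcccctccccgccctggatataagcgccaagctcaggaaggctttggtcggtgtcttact

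The motifs were searched on both strands in the 250 bases before the start of each gene, and a base may count for more than 1 motif. They were GTTAAT (an HNF1 core motif), AGGTCA (a nuclear receptor core motif), AGAACA (a steroid receptor core motif) and TGACNNNGC (an NRF2 element). Promoters were found for 37 of the 43 genes. AGGTCA lay in 10 of 37 (27%), against 13.7% of 27457 rat promoters, and TGACNNNGC lay in 7 (18.9%), against 10.2%. AGAACA lay in 3 (8.11%), against 17.1%, and GTTAAT in 1 (2.7%), against 6.46%. Hgd had AGGTCA on the reverse strand from -97 to -92 relative to the start, and Gstz1 had TGACNNNGC on the reverse strand from -231 to -223. In Sardh an AGGTCA from -213 to -208 lay inside a match to TGACNNNGC from -216 to -208. The windows of Fah and Cth held none of the 4. Among genes whose treated arrays all lay above the vehicle arrays, 4 of 13 promoters held AGGTCA, against 10 of all 37. The others with AGGTCA were Hpd, Bhmt, Amt, Dao, Ddc and Ddo, whose groups overlapped. A link between motif and difference was not tested.

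Hgd, which opens the aromatic ring of homogentisate, had levels of 6.27, 6.26 and 6.32 in vehicle animals 1, 2 and 3, whereas treated animals 1, 2 and 3 had 6.58, 6.64 and 6.47. Gstz1, which isomerises maleylacetoacetate, had 4.64, 4.64 and 4.78 in vehicle and 4.91, 5.06 and 4.92 in treated cortex. Fah, which splits fumarylacetoacetate and so ends the pathway, had 4.88, 4.96 and 5.03 in vehicle and 5.24, 5.34 and 5.22 in treated cortex. In all 3 genes the lowest treated array lay above the highest vehicle array, and the arrays of each group lay close together.

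The differences were 0.28 (SE 0.08, limma adjusted p = 0.156) for Hgd, 0.28 (SE 0.08, adjusted p = 0.173) for Gstz1 and 0.31 (SE 0.08, adjusted p = 0.141) for Fah. On slide 1 they were 0.29, 0.23 and 0.29. None changed sign in any of 17 alternative analyses. With groups that do not overlap, leaving out an array or blocking by slide could not have changed it. The other Hgd probe had a difference of 0.30. Hpd, which forms homogentisate from 4-hydroxyphenylpyruvate, had 6.29, 6.10 and 6.03 in vehicle and 6.05, 6.25 and 5.87 in treated cortex, and these groups overlapped (difference -0.09, SE 0.13). Many transcripts typical of liver varied strongly between these animals. The median of 18 such genes of 21 listed, relative to vehicle, ran 0.47, 0.03 and -0.35 over vehicle 1 to 3, whereas treated 1 to 3 had -0.29, 0.25 and 1.87. Some listed genes did not have this order. Apoh, Cyp2c11 and F2 rose from vehicle 1 to vehicle 3, and Fga and Sds varied little among the vehicle animals. The summed signal of that list, on a linear scale relative to the 75th percentile, was 111 to 134 in vehicle and 102 to 167 in treated cortex. Much of that sum was Cyp2e1, which varied little within a group (6.19 to 6.27 in vehicle, 5.77 to 5.94 in treated cortex). Treated 3 exceeded treated 1 by a median of 1.94 over these genes. Treated 3 minus treated 1 was -0.11 for Hgd, 0.01 for Gstz1, -0.02 for Fah and -0.18 for Hpd. The part of liver-type transcripts in the tyrosine gene differences was not tested.

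Leucine, isoleucine and valine are oxidised by the branched-chain ketoacid dehydrogenase complex (Bckdha, Bckdhb, Dbt and Dld) and then by separate mitochondrial routes. The difference was above 0 for all 13 measured genes of this group, from 0.05 for Bckdhb to 0.58 for Acadsb, with a median of 0.17. Of these 13, 3 (23.1%) were higher at an unadjusted p under 0.05, against 10.1% of all genes. In 8 (61.5%) every treated array lay above every vehicle array, against 13.9% of all genes. Some of these differences were small, such as 0.07 for Mccc2 and 0.10 for Aldh6a1. The 3 were Mccc1, Hibch and Hibadh.

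Mccc1, a subunit of the leucine-specific methylcrotonyl-CoA carboxylase, had 4.81, 4.83 and 5.07 in vehicle and 5.30, 5.20 and 5.26 in treated cortex. All 3 treated arrays lay above the vehicle arrays, by a difference of 0.35 (SE 0.10, limma adjusted p = 0.156). Its partner subunit Mccc2 had 3.91, 3.90 and 3.94 in vehicle and 4.02, 3.98 and 3.97 in treated cortex, a difference of 0.07 (SE 0.07). The dimmer Mccc2 probe gave -0.02. The slide 1 values were 0.40 for Mccc1 and 0.11 for Mccc2.

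Hibch and Hibadh act one after the other in valine breakdown. Hibch, which releases 3-hydroxyisobutyrate from its CoA ester, had 0.02, 0.0 and 0.06 in vehicle and 0.37, 0.33 and 0.80 in treated cortex. Treated 3 lay well above the other treated arrays, and no treated array reached down to the vehicle values (difference 0.48, SE 0.14, limma adjusted p = 0.165). The other Hibch probes gave 0.51 and 0.54. Hibadh, which oxidises 3-hydroxyisobutyrate, had 5.77, 5.86 and 5.86 in vehicle and 5.95, 6.06 and 6.06 in treated cortex. This is a difference of 0.19 (SE 0.07, adjusted p = 0.228), and the other Hibadh probe gave 0.29. On slide 1 the differences were 0.35 for Hibch and 0.12 for Hibadh.

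Acadsb, the short/branched chain acyl-CoA dehydrogenase of the isoleucine route, had -0.75, -0.95 and -0.78 in vehicle and 0.39, -0.60 and -0.52 in treated cortex. Treated 1 was far above the rest, and treated 2 and 3 were just above the highest vehicle array. The difference was 0.58 (SE 0.27, limma adjusted p = 0.283), 1.22 on slide 1 and 0.27 without treated 1. Within the dehydrogenase complex, Bckdha differed by 0.19 (SE 0.08), Bckdhb by 0.05 (SE 0.15), Dbt by 0.12 (SE 0.13) and Dld by 0.14 (SE 0.08). Ivd, Pccb and Dbt had slide 1 values of 0.0032, 0.01 and -0.10 against 0.28, 0.26 and 0.23 without treated 1, so treated 2 and 3 carried their differences. Pcca (0.15) and Aldh6a1 (0.10) differed by less than 2 standard errors. The dimmer Pcca probes gave 0.24 and 0.15.

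**Figure D2:**
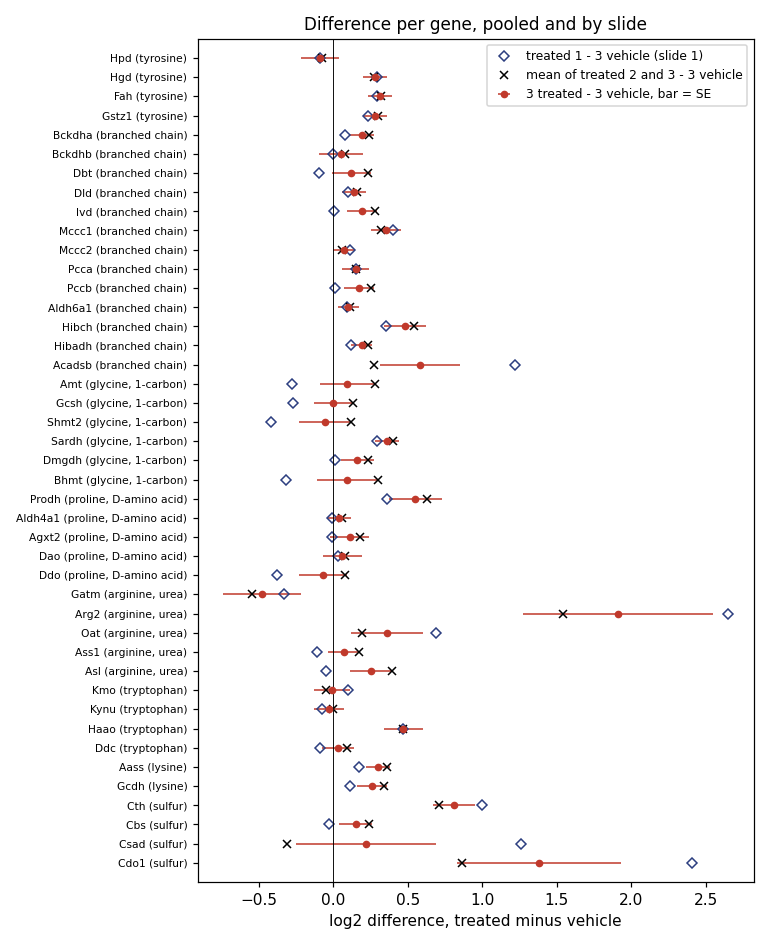
Difference per gene on the log2 scale, treated minus vehicle. Red points are all 3 treated against 3 vehicle arrays with bars of 1 SE, blue diamonds are treated 1 alone against the vehicle arrays of slide 1, and black crosses are the mean of treated 2 and 3 against the same vehicle arrays. The marks coincide for Hgd, Fah and Haao, lie to either side of 0 for Amt, Gcsh, Shmt2, Bhmt and Csad among others, and lie farthest from 0 for Arg2, whose diamond is at 2.65.

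Glycine and the methyl groups of choline feed the mitochondrial 1-carbon pool through the glycine cleavage system (Amt and Gcsh here), Shmt2, Dmgdh and Sardh. Of 6 measured genes only Sardh (16.7%) had an unadjusted p under 0.05 and was higher, against 10.1% of all genes. Sardh, sarcosine dehydrogenase, had 0.15, 0.24 and 0.32 in vehicle and 0.53, 0.69 and 0.58 in treated cortex. The groups were well separated, with a difference of 0.36 (SE 0.08, limma adjusted p = 0.132) and a slide 1 value of 0.29. Over the 17 alternatives the difference ran from 0.29 to 0.43.

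Amt, Gcsh, Shmt2 and Bhmt, which remethylates homocysteine with betaine, had their lowest value of all 6 arrays in treated 1. On slide 1 they had -0.28, -0.27, -0.42 and -0.32, against 0.28, 0.13, 0.12 and 0.30 without treated 1. Their pooled differences were 0.09 (SE 0.18), -0.0036 (SE 0.13), -0.06 (SE 0.17) and 0.09 (SE 0.20). Dmgdh, the dehydrogenase before Sardh, differed by 0.16 (SE 0.11). Ass1, Ddc and Ddo were also lowest in treated 1, which makes 7 of 43 (16.3%), against 21.7% of all genes tested.

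Among the 5 proline and D-amino acid genes, Prodh had the largest difference. It was the 1 gene (20%) higher at an unadjusted p under 0.05, against 10.1% of all genes. Prodh, proline dehydrogenase, had 4.35, 4.42 and 4.90 in vehicle and 4.92, 5.11 and 5.27 in treated cortex. Vehicle 3 lay just under treated 1, and the difference was 0.55 (SE 0.18, limma adjusted p = 0.187). It was 0.36 on slide 1 and 0.64 without treated 1. The 3 dimmer Prodh probes gave 0.40, 0.19 and 0.12. Aldh4a1, which completes the conversion of proline to glutamate, differed by 0.04 (SE 0.08). Agxt2 (0.11), Dao (0.06), the D-amino acid oxidase, and Ddo (-0.07), the D-aspartate oxidase, overlapped between groups and differed by less than 1 standard error.

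The arginine and urea genes held both the highest and the lowest difference of the 43. Arg2, the mitochondrial arginase, had -1.87, -0.70 and 0.48 in vehicle and 1.96, 0.68 and 1.02 in treated cortex. The vehicle animals were far apart, and vehicle 3 lay just under treated 2. The difference was 1.91 (3.77-fold, SE 0.64, limma adjusted p = 0.192), 2.65 on slide 1 and 1.54 without treated 1. Oat, which transfers the amino group of ornithine, had 4.75, 5.15 and 5.54 in vehicle and 5.84, 5.33 and 5.35 in treated cortex, and these groups overlapped (difference 0.36, SE 0.24). The Oat difference was 0.16 without vehicle 1, 0.56 without vehicle 3, 0.19 without treated 1 and 0.69 on slide 1. The dimmer Oat probe gave 0.43.

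Gatm, which joins arginine and glycine to guanidinoacetate, had 5.19, 5.77 and 4.77 in vehicle and 4.91, 4.79 and 4.59 in treated cortex. Vehicle 3 lay among the treated arrays, and the difference was -0.48 (SE 0.26, limma adjusted p = 0.332). It was -0.22 without vehicle 2, -0.72 without vehicle 3 and -0.33 on slide 1. The dimmer Gatm probe gave -0.21. Of the arginine-forming pair, Ass1 had 6.24, 6.21 and 6.09 in vehicle and 6.07, 6.42 and 6.28 in treated cortex. Asl had 5.46, 5.26 and 5.35 in vehicle and 5.31, 5.78 and 5.72 in treated cortex. Their differences were 0.07 (SE 0.11) and 0.25 (SE 0.14), and on slide 1 they were -0.11 and -0.05.

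Of 4 tryptophan genes, Haao alone (25%) was higher at an unadjusted p under 0.05, against 10.1% of all genes. Haao, which makes the quinolinate precursor of NAD, had 4.0, 3.95 and 4.25 in vehicle and 4.54, 4.34 and 4.72 in treated cortex. The groups did not overlap, and the difference was 0.47 (SE 0.13, limma adjusted p = 0.163), with 0.47 on slide 1. Kmo (-0.01, SE 0.12) and Kynu (-0.03, SE 0.10), which act before Haao, and Ddc (0.03, SE 0.11), which decarboxylates aromatic amino acids, had differences near 0.

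Both lysine genes were higher at an unadjusted p under 0.05, against 10.1% of all genes. Aass, which starts lysine breakdown, had 2.27, 2.33 and 2.34 in vehicle and 2.48, 2.67 and 2.67 in treated cortex. Every treated array was above every vehicle array (difference 0.30, SE 0.08, limma adjusted p = 0.160). Without treated 1 the difference was 0.36 and the limma adjusted p was 0.0379, which made Aass and Cth the 2 called genes of the 43. In that analysis 9.37% of all genes were called, so 2 of the 43 is a smaller share than the background, and treatment cannot be told apart from slide there. On slide 1 the Aass difference was 0.17. Gcdh, glutaryl-CoA dehydrogenase, had 6.53, 6.52 and 6.71 in vehicle and 6.70, 6.96 and 6.89 in treated cortex, a difference of 0.26 (SE 0.10), with treated 1 just under vehicle 3. Its slide 1 value was 0.11.

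The sulfur amino acid genes had the largest median difference of the pathways, 0.51 over 4 genes. Methionine sulfur passes through Cbs and Cth to cysteine, which Cdo1 oxidises and Csad carries on towards taurine. Cth, cystathionine gamma-lyase, had 1.67, 1.92 and 1.92 in vehicle and 2.84, 2.39 and 2.71 in treated cortex. The lowest treated array, treated 2, lay clearly above every vehicle array, and the difference was 0.81 (1.75-fold, SE 0.14). Its limma adjusted p of 0.0957 was the lowest of the 43 genes. The difference was 1.0 on slide 1. Without treated 1 it was 0.71 at an adjusted p of 0.0453, in a comparison where slide and treatment are the same split. Over the 17 alternatives the difference ran from 0.71 to 1.0.

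Cdo1, cysteine dioxygenase, had -3.30, -2.94 and -2.03 in vehicle and -0.34, -2.21 and -1.58 in treated cortex. Treated 2 lay below vehicle 3, and the difference of 1.38 (SE 0.55, limma adjusted p = 0.234) was 2.41 on slide 1 and 0.86 without treated 1. Csad, which decarboxylates cysteine sulfinate, had -1.03, -0.57 and -0.27 in vehicle and 0.64, -1.05 and -0.80 in treated cortex. Only treated 1 was above the vehicle range: the difference was 1.26 on slide 1 and -0.30 without treated 1. Cbs differed by 0.15 (SE 0.11).

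**Figure D3:**
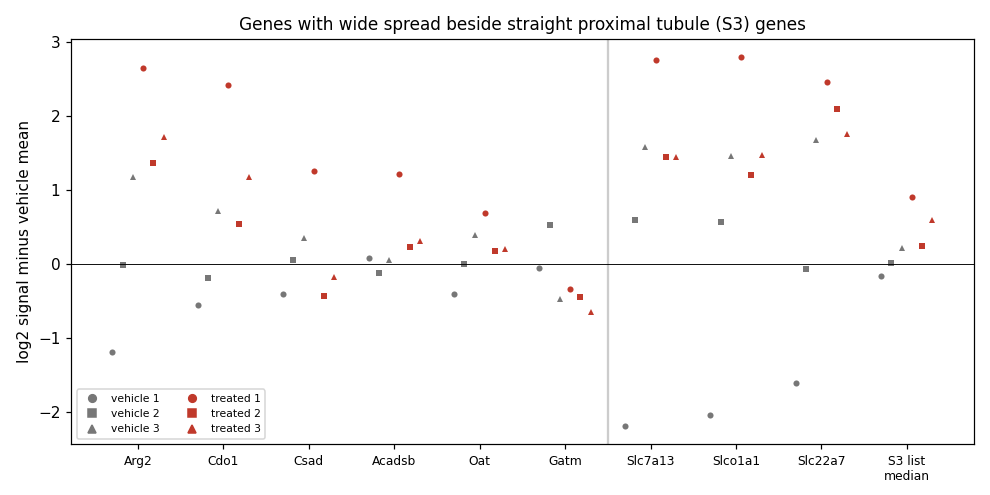
Log2 signal minus the vehicle mean on each array, for 6 genes of amino acid metabolism (left) and for 3 transporters of the S3 segment with the median of the 10-gene S3 list (right). Vehicle 1 is lowest and treated 1 highest for Arg2, Cdo1, Oat, Slc7a13, Slco1a1, Slc22a7 and the list median, while Gatm shows neither. Slc5a1, Slc5a8, Slc22a13 and Cyp7b1 of the S3 list, not drawn singly, do not have this order.

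Some genes of the S3 segment, and the median of the S3 list, had vehicle 1 lowest and treated 1 highest. This order did not hold for Slc5a1, Slc5a8, Slc22a13 and Cyp7b1 of the list. The 10 listed S3 genes, all tested, had a median relative to vehicle of -0.16, 0.02 and 0.21 over vehicle 1 to 3, whereas treated 1 to 3 had 0.91, 0.25 and 0.59. In this list 4 genes (40%) were higher and 1 (Cyp7b1) lower at an unadjusted p under 0.05, against 10.1% and 11.3% of all genes. Their summed linear signal was 37.6 to 121 in vehicle and 115 to 233 in treated cortex. Slc7a13, an S3 amino acid transporter, had 2.5, 5.27 and 6.26 in vehicle and 7.43, 6.12 and 6.13 in treated cortex. The 6 listed S1 and S2 genes had a median of 0.03, -0.01 and -0.04 over vehicle 1 to 3, whereas treated 1 to 3 had -0.40, 0.05 and 0.02. Treated 1 was the highest array for 8 of the 43 genes (18.6%), namely Acadsb, Arg2, Cdo1, Csad, Cth, Mccc1, Mccc2 and Oat, against 13.9% of all genes. Vehicle 1 was also the lowest array for 5 of them, Arg2, Cdo1, Cth, Mccc1 and Oat (11.6%), against 4.54% of all genes. The part of S3 tissue in these differences was not tested. Of 6 adipocyte markers 3 were tested, with summed signals of 1.15 to 1.65 in vehicle and 2.04 to 2.35 in treated cortex. The median of the 3 relative to vehicle was 2.03 in treated 1, 0.29 in treated 2 and 0.19 in treated 3, and its part in the results was not tested. Plin1, Lep and Retn were not tested, and Adipoq, which defines adipocytes, had its lowest value, -0.78, in treated 1.

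The other genes of these pathways were taken from a list of 87 that excluded the 43, and 73 of them were tested. At the adjusted threshold 0 were called. At an unadjusted p under 0.05, 18 were higher (24.7%) and 3 lower, against the 10.1% and 11.3% of all genes, and their median difference was 0.13 (0.02 on slide 1). The 3 tested tyrosine genes of this list (median 0.0) included none at that level.

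In arginine metabolism, Agmat, annotated as agmatinase, had 4.77, 4.70 and 4.91 in vehicle and 5.50, 5.73 and 5.71 in treated cortex. The groups were far apart (difference 0.86, SE 0.10, limma adjusted p = 0.0635), with 0.71 on slide 1. Gamt, which methylates guanidinoacetate to creatine after Gatm, had 3.61, 3.94 and 4.14 in vehicle and 4.77, 4.43 and 5.08 in treated cortex. Its difference was 0.86 (SE 0.21, limma adjusted p = 0.134).

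In the methionine cycle, Mat2a, which makes S-adenosylmethionine, had 0.74, 0.65 and 0.81 in vehicle and 1.87, 1.55 and 1.42 in treated cortex (difference 0.88, SE 0.13, limma adjusted p = 0.0846). Sqor, which oxidises hydrogen sulfide in mitochondria, had 1.06, 0.62 and 1.09 in vehicle and 1.78, 1.95 and 1.89 in treated cortex (difference 0.95, SE 0.14, adjusted p = 0.0886). In both genes every treated array was well above the vehicle range, and the slide 1 values were 1.13 and 0.86. Bhmt2, which had a difference of 0.44, is a close copy of Bhmt (0.09), so probe signal may be shared between them.

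**Figure D4:**
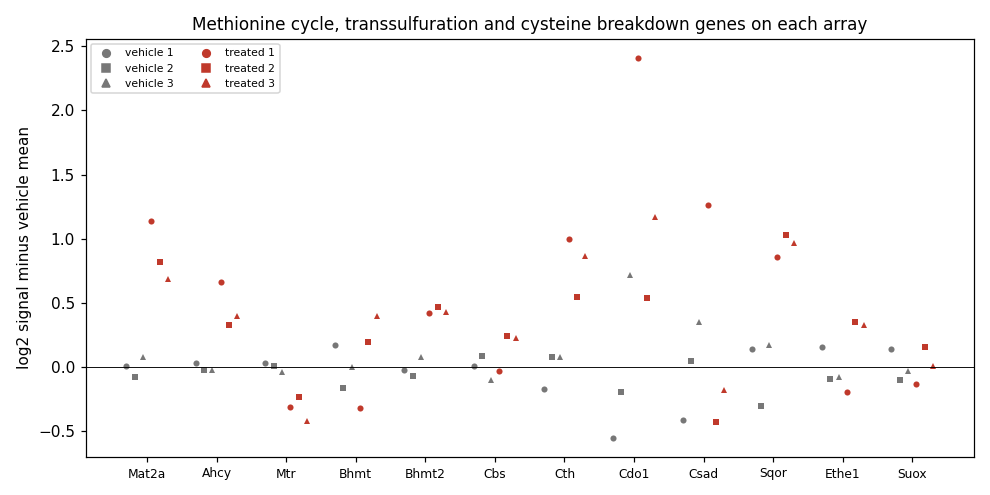
Log2 signal minus the vehicle mean on each array for genes of the methionine cycle (Mat2a to Bhmt2), transsulfuration (Cbs and Cth) and cysteine and sulfide breakdown (Cdo1 to Suox). All 3 treated arrays lie above the vehicle arrays for Mat2a, Ahcy, Bhmt2, Cth and Sqor and below them for Mtr, whereas treated 1 alone stands out for Csad.

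In the branched-chain list, Ppm1k, the phosphatase that activates the ketoacid dehydrogenase, had -1.29, -1.26 and -0.90 in vehicle and -0.14, -0.25 and -0.51 in treated cortex. The difference was 0.85 (SE 0.15, limma adjusted p = 0.0957), larger than that of any of the 4 complex subunits, which ranged from 0.05 to 0.19. In serine and glycine metabolism, Psph, the last enzyme of serine synthesis, had 2.86, 2.92 and 2.77 in vehicle and 2.08, 1.98 and 1.52 in treated cortex. It was lower on every treated array, at a difference of -0.99 (SE 0.16, adjusted p = 0.0912), and Aldh1l1, which oxidises formyltetrahydrofolate, was higher by 0.63 (SE 0.12, adjusted p = 0.10).

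Hoga1, which ends hydroxyproline breakdown, differed by 0.36 (SE 0.09, limma adjusted p = 0.145). Ftcd, of histidine breakdown, had a difference of 0.99 (SE 0.24, adjusted p = 0.138), and Maob, a monoamine oxidase, of 0.57 (SE 0.21, adjusted p = 0.219). Aadat, an aminotransferase of the tryptophan and lysine routes, had 2.86, 4.12 and 4.98 in vehicle and 5.88, 4.98 and 5.41 in treated cortex. As with Arg2, vehicle 1 was lowest and treated 1 highest, and the difference was 1.44 (SE 0.55, adjusted p = 0.223).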

How the data were processed

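Cy3-labelled cRNA from 3 vehicle and 3 treated rat renal cortices was hybridised to 1-colour Agilent arrays, per the labels' protocols. The spot intensity values were made by the authors using version 10.7.1.1 of Agilent Feature Extraction, per the file headers. The program subtracts background and gives a processed signal on a linear scale (version 10.7 per the submitters' processing notes). A deposited series table, an alternative source, holds intensity values close to this signal divided by each array's 75th percentile (column medians 0.105 to 0.11); its exact scaling is not given in the sources used here. From the processed signal, log2 values minus the 75th percentile were computed for 61537 non-control probes, without 11 probes flagged as outliers. No probe was saturated. A probe was tested if all 3 arrays of either group had it well above background.

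Accessions were matched without versions to RefSeq genes of GRCr8: 28206 probes had 1 symbol, 33331 none. The comparison used limma 3.58.1 (R 4.3.3; lmFit, eBayes, two-sided, Benjamini-Hochberg), and the procedure was tested on simulated data. Per-array values were given for members with non-overlapping groups and an unadjusted p under 0.05, and for the largest difference of each pathway. Other pathway genes were named up to 2 per pathway by smallest p, some without per-array values. A gene that this rule names is not reported here. Hpd, Mccc2, Oat, Gatm, Ass1, Asl, Gcdh, Csad, Slc7a13 and the genes of the sulfur plot were picked with their values known. The genes and lists were chosen with earlier results of these data known. Replicate numbers did not pair the samples: same-numbered arrays had correlated deviations of -0.21, 0.01 and -0.16. The number of arrays limits the precision. Alternatives covered background correction, normalization, filter, slide, replicate block, variance model, source of values, probe choice and each array left out.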

Additional observations from a re-analysis of the deposited data

How the results depend on the processing

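Of 731 pairs of a gene and an alternative analysis, 687 kept their sign and side of the threshold. The 14 genes with an unadjusted p under 0.05 never changed sign, and 18 of the 43 did so in at least 1 alternative. The 14 were picked by p in these same data, so their kept signs are not separate support. The median difference over the 43 genes kept its sign in all of them. With the replicate block 10 genes were higher and 0 probes were called, and the block changed the call of none of the 43. With slide as a fixed block 9 genes were higher, 3 lower and 1 probe was called. Probes called numbered 137 with normexp on the median spot signal (used in place of the mean), 17 with median centring, 156 with a variance trend and robust fit, 1 without a filter and 0 where every array had to exceed background. Leaving out single arrays gave 8 to 19 genes higher, 0 to 1 lower, 0 to 2 of the 43 called and 1 to 4235 probes called, and the cause was not tested.

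Signs turned as follows. Slide as a fixed block gave Bckdhb -0.0029, Dbt -0.10, Amt -0.28, Bhmt -0.32, Aldh4a1 -0.01, Agxt2 -0.01, Ass1 -0.11, Asl -0.05, Kmo 0.10, Ddc -0.09 and Cbs -0.03, and as a random block Amt -0.07, Bhmt -0.09, Ass1 -0.01, Kmo 0.04 and Ddc -0.02. Normexp gave Bhmt -0.0042, Aldh4a1 -0.07 and Ddc -0.03, median centring gave Gcsh 0.03, Kmo 0.03 and Kynu 0.01, and the mean over a gene's probes gave Aldh4a1 -0.0016. The cause was not tested. Leaving out single arrays gave ranges that crossed 0: Hpd -0.18 to 0.01, Bckdhb -0.08 to 0.13, Amt -0.0017 to 0.28, Gcsh -0.08 to 0.13, Shmt2 -0.19 to 0.12, Bhmt -0.06 to 0.30, Aldh4a1 -0.0036 to 0.07, Dao -0.05 to 0.15, Ddo -0.18 to 0.08, Ass1 -0.01 to 0.16, Kmo -0.07 to 0.09, Kynu -0.12 to 0.03, Ddc -0.08 to 0.09 and Csad -0.30 to 0.54.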
